A study of Homo sapiens with 8 samples.

Results

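The clustered protocadherins are 3 tandem gene families on human chromosome 5, and 54 of the 35238 gene symbols in the count table belonged to them. Members were chosen by symbol alone: 16 alpha genes (PCDHA1 to PCDHA14, PCDHAC1 and PCDHAC2, among them the pseudogene PCDHA14), 16 beta genes (PCDHB1 to PCDHB16) and 22 gamma genes (12 PCDHGA, 7 PCDHGB and 3 PCDHGC). RNA was sequenced from MP38, a single BAP1-mutant uveal melanoma (UM) cell line, after 24 h in 40 nM romidepsin, 40 nM quisinostat or 1200 nM mivebresib, or in 0.1% DMSO alone as the control; the drugs were dissolved in DMSO. Both romidepsin and quisinostat are histone deacetylase (HDAC) inhibitors, which raise histone acetylation, whereas mivebresib keeps BET proteins from binding acetylated histones; the submitters called the doses high. Each of the 4 groups had 2 libraries, from separate wells of the same line, so the spread given here is the spread between wells, and the 3 drug groups were all set against the same 2 control libraries.

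Protocadherins of these families are cell-surface adhesion proteins of the cadherin superfamily, best known from neurons, where each cell expresses its own combination of isoforms and matching surfaces recognise each other. In the alpha and gamma clusters each gene is a variable first exon with its own promoter, spliced to constant exons that the whole cluster shares, whereas the beta genes do not use shared constant exons. The architectural protein CTCF and cohesin are known to bind many of these promoters and to bring them to distant enhancers, and the C-type genes at the ends of the alpha and gamma clusters are known to be regulated separately from the alternative isoforms. On GRCh38 (GENCODE 29 annotation) the clusters lay one after the other on the plus strand of chromosome 5, the alpha genes from 140786136 to 141012347, the beta genes from 141051135 to 141249365 and the gamma genes from 141330571 to 141512981.

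The stretches just upstream of the start sites show how alike the members of a cluster are, and they are given for a selection of members, called or not. Promoters of 47 members were in the RefSeq table (GRCh38.p14, 250 bases before to 50 after the start site). In each cluster the 9-base run shared by most promoters is in capitals, and both strands were searched. All stretches are on the plus strand, 5′ to 3′.
PCDHB5: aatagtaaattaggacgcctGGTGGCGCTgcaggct
PCDHB7: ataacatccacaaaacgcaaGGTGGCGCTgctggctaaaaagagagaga
PCDHB16: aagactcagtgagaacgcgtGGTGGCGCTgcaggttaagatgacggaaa
PCDHB10: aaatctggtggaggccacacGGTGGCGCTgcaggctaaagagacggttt
PCDHB2: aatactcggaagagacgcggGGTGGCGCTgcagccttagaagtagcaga
PCDHB1: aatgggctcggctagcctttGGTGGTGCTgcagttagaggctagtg
PCDHA1: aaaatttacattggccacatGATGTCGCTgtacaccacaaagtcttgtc
PCDHA10: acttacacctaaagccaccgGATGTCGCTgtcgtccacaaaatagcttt
PCDHGB1: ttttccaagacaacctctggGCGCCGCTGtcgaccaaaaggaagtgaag
PCDHGA10: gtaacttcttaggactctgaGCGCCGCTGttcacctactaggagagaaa
The beta run GGTGGCGCT was in 13 of 14 beta promoters and in 0.619% of the promoters of all 27305 genes in the table. The promoters of PCDHB6 and PCDHB11 were not among those 14. Among the beta stretches, PCDHB5 is at chr5:141135170-141135205, PCDHB7 at chr5:141172557-141172605, PCDHB16 at chr5:141182301-141182349, PCDHB10 at chr5:141192290-141192338 and PCDHB2 at chr5:141094535-141094583. PCDHB1 (chr5:141051328-141051373), singled out after its values were seen, was the beta promoter without it, and its capitals mark the closest run, GGTGGTGCT, which differs by C6T counted from the first base of the beta run. The alpha run GATGTCGCT was in 9 of 13 alpha promoters and in 0.128% of all promoters; it is shown for PCDHA1 (chr5:140786077-140786125) and PCDHA10 (chr5:140855832-140855880), and PCDHAC1, PCDHAC2, PCDHA9 and PCDHA11 did not hold it. The gamma run GCGCCGCTG was in 10 of 20 gamma promoters and in 1.586% of all promoters, as in PCDHGB1 (chr5:141350017-141350065) and PCDHGA10 (chr5:141412923-141412971), and PCDHGC3 and PCDHGC4 were among those without it. The run began 16 bases (PCDHB5) to 67 bases (PCDHB7) before the start site in the printed stretches that hold it, taking the nearer start site for PCDHGB1. No run of one cluster was found in the promoters of another cluster. The letters CGCTG, which the gamma run contains and the alpha and beta runs overlap, were in 9 of 13 alpha, 12 of 14 beta and 20 of 20 gamma promoters and in 51.745% of all promoters. The runs were read from these promoters themselves, so their frequency within the cluster is a description, and a match is neither a site nor a cause.

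Total counts per library were 28483235 to 29359024, so depth hardly differed between groups. After a filter on low counts, 15085 genes were tested with edgeR, and 46 members were among them, 11 alpha, 16 beta and 19 gamma; the other 8 (PCDHA2, PCDHA5, PCDHA6, PCDHA12, PCDHA14, PCDHGA11, PCDHGA12 and PCDHGC4) had too few counts. A gene was called when its Benjamini-Hochberg adjusted p was below 0.05 and its log2 fold change (FC) beyond 1.5. The control libraries stood further apart than those of any drug group. A chi-square statistic per degree of freedom over genes was 58.1 for the control pair and 9.52 to 9.79 for the drug pairs. Among members, 41 were higher and 11 lower in control replicate 2 than in replicate 1. Such a lean was not confined to the control. Under quisinostat 38 members were higher and 16 lower in replicate 2, and mivebresib had 31 higher and 20 lower. Romidepsin leaned the other way, at 14 higher and 39 lower. Where leaving out 1 library ended the call of a member described here against the control or between the HDAC inhibitors, its value without that library is given. MP38 libraries had the melanocytic marker MLANA at counts of 6194 and 5265 in control, 5142 and 5714 under romidepsin, 3175 and 3097 under quisinostat and 2281 and 2230 under mivebresib. In all, 6 of 7 melanocytic markers passed the filter, and the remaining one, DCT, had at most 5 counts in a library. In bulk RNA, a lower level in every cell and fewer cells with RNA of a gene cannot be told apart.

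As whole clusters, the alpha genes were highest with quisinostat, the beta genes were highest with quisinostat and lowest with mivebresib, and the gamma genes were lowest with mivebresib. CPM values (counts scaled to a common library size with TMM factors) summed over the 16 alpha genes were 3.47 and 4.46 in the control libraries, 8.93 and 6.92 with romidepsin, 19.9 and 22.1 with quisinostat and 5.74 and 6.51 with mivebresib. No drug library overlapped the control libraries in this sum of all alpha genes. Without PCDHAC1 and PCDHAC2, the sum over the other alpha genes was 3.29 and 4.35 CPM in control and 3.62 and 4.21 CPM with mivebresib, which lay within the control range, and the ratios to the control mean were 1.57 for romidepsin, 3.79 for quisinostat and 1.02 for mivebresib. The alpha sum was 3.96 ± 0.696 CPM in control (mean ± SD, n = 2) and 21.02 ± 1.52 CPM with quisinostat, 5.30 times the control mean, while romidepsin and mivebresib gave 2.00 and 1.55 times the control mean.

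Over the 16 beta genes the summed CPM was 67.1 and 104 in control, 106 and 93.02 with romidepsin, 163 and 189 with quisinostat and 34.1 and 38.9 with mivebresib. Both quisinostat libraries lay above both control libraries and both mivebresib libraries below them, whereas the romidepsin range reached into that of the controls. The ratios of the means were 2.06 for quisinostat and 1.16 for romidepsin, and the mivebresib mean of 36.5 ± 3.41 CPM was 2.34-fold below the control mean of 85.3 ± 25.8 CPM. Without control replicate 2 the mivebresib ratio moved from 0.427 to 0.543, and without replicate 1 to 0.352.

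Over the 22 gamma genes the summed CPM was 338 and 486 in control, 420 and 385 with romidepsin, 355 and 397 with quisinostat and 276 and 268 with mivebresib. Both HDAC inhibitors lay within the spread of the control libraries, and both mivebresib libraries lay below it, at 0.661 of the control mean. The gamma sum was mostly PCDHGC3, a C-type gene, which took 70.3% to 77.9% of the gamma counts in every library (counts not divided by length). Without PCDHGC3 the mivebresib ratio was 0.649 and the quisinostat ratio 1.10. These sums are descriptions with no test.

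**Figure D1:**
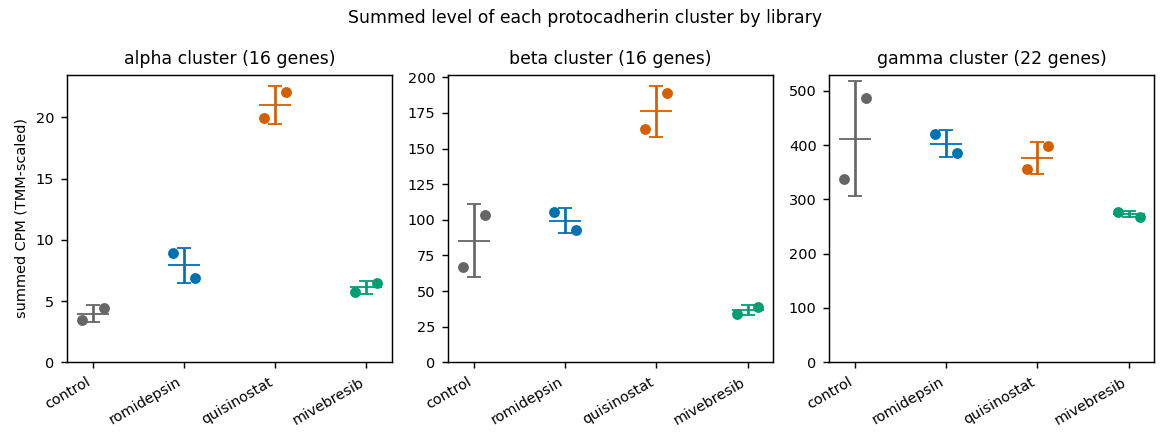
Summed CPM (TMM-scaled) of the alpha, beta and gamma clusters in each library, by group; points are the 2 libraries, the horizontal bar their mean and the error bars 1 SD, and each axis starts at 0. The mean alpha sum is 3.96 in control and 21.02 with quisinostat, and the mean beta sum is 85.3 in control, 176 with quisinostat and 36.5 with mivebresib.

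Quisinostat was the drug with which most members were higher. It raised 18 of the 46 tested members past both thresholds, against 11.2% of all tested genes called higher, and 0 members were called lower, against 1.03%. The 18 were 8 of 11 alpha, 5 of 16 beta and 5 of 19 gamma genes. The filter on low counts asks for enough counts in as many libraries as a group holds. PCDHA3, PCDHA11, PCDHA13 and PCDHGA3 reached it only with their quisinostat libraries. Their calls in any comparison with quisinostat, and the alpha share and median, rest in part on that selection. For the count of 0, edgeR gave 0 members lower at an unadjusted p below 0.05, and DESeq2 and limma-voom called 0; DESeq2 called 16 members higher and limma-voom 17. Without quisinostat replicate 2 the count was 10, with 3 beta and 1 gamma calls, and without control replicate 1 there were 3 beta and 2 gamma calls. Of the 18 calls, 9 held in each of the 4 fits that left out a control or quisinostat library (PCDHA1, PCDHA10, PCDHA11, PCDHAC1, PCDHAC2, PCDHB4, PCDHB6, PCDHB10 and PCDHGA5), and 9 were lost in at least 1 of them. At the adjusted p alone, 30 members were higher (9 alpha, 14 beta and 7 gamma) beside 28% of all genes, and 0 lower beside 25.1%. The median log2 FC was 2.79 over the tested alpha genes, 1.21 over the beta genes and 0.56 over the gamma genes, and -0.0036 over all tested genes.

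The C-type alpha genes PCDHAC1 and PCDHAC2, the last of the alpha cluster, were the members called with every drug. Counts of PCDHAC1 were 3 and 1 in control, 27 and 29 under romidepsin, 151 and 124 under quisinostat and 28 and 39 under mivebresib. All 6 treated libraries lay above both control libraries, and quisinostat was highest. Summed over a group, the PCDHAC1 counts with quisinostat were 60.7 (95% counting interval 23.4 to 224) times those in control after scaling for depth, 13.4 (95% counting interval 4.95 to 50.8) times with romidepsin and 16.9 (95% counting interval 6.298 to 63.8) times with mivebresib; the intervals cover counting error only. The fitted log2 FC was 5.84 ± 0.39 (SE, adjusted p = 8.83e-06) for quisinostat, 3.67 ± 0.49 (SE, adjusted p = 0.00103) for romidepsin and 3.999 ± 0.47 (SE, adjusted p = 0.000223) for mivebresib, on a control of 3 counts or fewer per library.

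Counts of PCDHAC2 were 2 and 2 in control, 33 and 22 under romidepsin, 77 and 59 under quisinostat and 30 and 25 under mivebresib. The pattern was that of its neighbour, with no overlap between control and treated libraries. The scaled ratio of summed counts was 30.01 (95% counting interval 11.5 to 112) for quisinostat, 13.1 (95% counting interval 4.85 to 49.96) for romidepsin and 13.9 (95% counting interval 5.12 to 52.7) for mivebresib. Quisinostat gave a fitted log2 FC of 4.83 ± 0.44 (SE, adjusted p = 4.66e-05). Both genes stood in a cluster where little RNA was counted in control: the 16 alpha genes held 98 and 122 counts together in the control libraries.

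**Figure D2:**
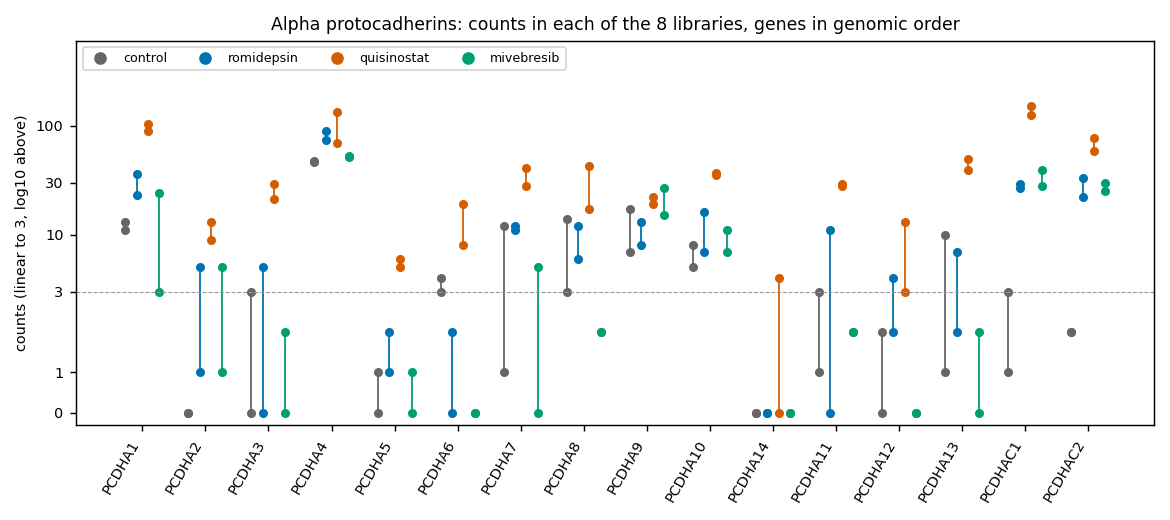
Counts of the 16 alpha genes in each of the 8 libraries (vertical axis linear to 3 counts and log10 above), genes in genomic order, colours by group, with the 2 libraries of a group joined by a line; the dashed line marks 3 counts. PCDHAC1 and PCDHAC2 lie at 3 counts or fewer in both control libraries and at 22 or more in every treated library, and PCDHA4 has 46 to 134 counts throughout.

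Among the alternative alpha isoforms, quisinostat raised PCDHA1, PCDHA3, PCDHA7, PCDHA10, PCDHA11 and PCDHA13, and neither romidepsin nor mivebresib moved any of them past the thresholds. Counts of PCDHA1, the first gene of the cluster, were 11 and 13 in control, 36 and 23 under romidepsin, 89 and 104 under quisinostat and 3 and 24 under mivebresib. Both quisinostat libraries lay above every other library, and the mivebresib libraries fell on either side of the control. Its log2 FC with quisinostat was 2.81 ± 0.55 (SE, adjusted p = 0.002796). Counts of PCDHA3 were 0 and 3 in control, 5 and 0 under romidepsin, 21 and 29 under quisinostat and 0 and 2 under mivebresib, and of PCDHA11 1 and 3 in control, 0 and 11 under romidepsin, 28 and 29 under quisinostat and 2 and 2 under mivebresib. Both had 11 counts or fewer in every library other than those of quisinostat, where the scaled ratio over control was 14.7 (95% counting interval 4.75 to 73.7) for PCDHA3 and 12.6 (95% counting interval 4.65 to 47.7) for PCDHA11. The call of PCDHA3 was lost without quisinostat replicate 2, with an edgeR adjusted p of 0.0646.

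The other called alpha isoforms had few counts as well. Counts of PCDHA13 were 1 and 10 in control, 7 and 2 under romidepsin, 39 and 49 under quisinostat and 0 and 2 under mivebresib. Quisinostat lay above every other library and mivebresib was at 2 counts or fewer, and the log2 FC of PCDHA13 with quisinostat was 2.79 ± 0.68 (SE, adjusted p = 0.00854). Counts of PCDHA10 were 8 and 5 in control, 16 and 7 under romidepsin, 35 and 37 under quisinostat and 7 and 11 under mivebresib, with a log2 FC of 2.27 ± 0.45 (SE, adjusted p = 0.00308) for quisinostat, and counts of PCDHA7 were 1 and 12 in control, 12 and 11 under romidepsin, 28 and 41 under quisinostat and 5 and 0 under mivebresib, with 2.20 ± 0.75 (SE, adjusted p = 0.0365). The call of PCDHA13 was lost without quisinostat replicate 2 (adjusted p = 0.0567). That of PCDHA7 was lost without control replicate 1, with a log2 FC of 1.31 and an adjusted p of 0.115, and without quisinostat replicate 1 or 2, with adjusted p of 0.0742 and 0.175. PCDHA8, not called, had counts of 3 and 14 in control, 12 and 6 under romidepsin, 17 and 43 under quisinostat and 2 and 2 under mivebresib and a log2 FC of 1.62 ± 0.67 (SE, adjusted p = 0.0699). Among the alpha genes that were not tested, PCDHA2 had 0 counts in both control libraries and 13 and 9 with quisinostat, at least 6.47-fold higher against a floor of 3 counts over the group. PCDHA6 had 3 and 4 counts in control, 19 and 8 with quisinostat and 0 in both mivebresib libraries, PCDHA12 had 0 and 2 in control and 13 and 3 with quisinostat, PCDHA5 had at most 6 counts in a library, and the pseudogene PCDHA14 had 4 counts in 1 quisinostat library and 0 elsewhere.

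PCDHA4, the alpha gene with the most counts in control, was not called. Its counts were 47 and 46 in control, 90 and 74 under romidepsin, 69 and 134 under quisinostat and 52 and 53 under mivebresib. Its log2 FC with quisinostat was 0.95 ± 0.31 (SE, adjusted p = 0.0308), below the fold threshold, and its share of the alpha counts was 48.0% and 37.7% in control and 10.95% and 19.3% with quisinostat. PCDHA9, named after its values were seen, was the other alpha gene with a small difference, with a log2 FC of 0.59 ± 0.49 (SE, adjusted p = 0.3398). The share of the 31-base words of the longest annotated transcript that occurred in another clustered protocadherin was 4.52% for PCDHA4, 16.9% for PCDHA9 and 21.9% for PCDHA10, which was called with quisinostat, against a median of 62.8% over the alpha genes. In the annotation, the alpha genes share constant exons of 59, 89 and 2718 bases and the gamma genes share exons of 59, 89 and 2033 bases. How the counting assigned reads from shared exons is not given in the sources used here, so values of single genes that share sequence are uncertain. The median share was 62.8% over the alpha, 20.6% over the beta and 50.8% over the gamma genes, with exceptions on both sides, such as 56.1% for PCDHB8, 41.9% for PCDHB10, 7.67% for PCDHGA6 and 7.99% for PCDHGB6.

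In the beta cluster, quisinostat called PCDHB3, PCDHB4, PCDHB6, PCDHB10 and PCDHB12. The log2 FC was positive for all 16 beta genes, from 0.26 to 2.11, and 14 of them had an adjusted p below 0.05. PCDHB10 had the largest value. Its counts were 37 and 51 in control, 99 and 80 under romidepsin, 192 and 239 under quisinostat and 33 and 40 under mivebresib. Quisinostat lay highest with no overlap, romidepsin lay between quisinostat and control, and the mivebresib range overlapped that of the control. The log2 FC of PCDHB10 was 2.11 ± 0.22 (SE, adjusted p = 0.000104) with quisinostat and 0.96 ± 0.24 (SE, adjusted p = 0.0176) with romidepsin.

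PCDHB4 and PCDHB3 lie next to each other near the start of the cluster. Counts of PCDHB4 were 20 and 20 in control, 30 and 18 under romidepsin, 73 and 72 under quisinostat and 14 and 14 under mivebresib, and those of PCDHB3 were 16 and 33 in control, 45 and 42 under romidepsin, 79 and 96 under quisinostat and 24 and 24 under mivebresib. In both, the quisinostat libraries lay above all others, with a log2 FC of 1.67 ± 0.28 (SE, adjusted p = 0.00115) for PCDHB4 and 1.65 ± 0.31 (SE, adjusted p = 0.00235) for PCDHB3. PCDHB12 had counts of 12 and 37 in control, 29 and 31 under romidepsin, 82 and 91 under quisinostat and 7 and 13 under mivebresib and a log2 FC of 1.63 ± 0.42 (SE, adjusted p = 0.0104), on control libraries that differed more than those of PCDHB4. Without control replicate 1 the log2 FC was 1.02 for PCDHB12 and 1.20 for PCDHB3, both below the fold threshold. Without quisinostat replicate 2 PCDHB12 had an adjusted p of 0.0598 and PCDHB3 a log2 FC of 1.49, so neither was called. PCDHB8 at 1.36, PCDHB7 at 1.34 and PCDHB9 at 1.30 came nearest to the fold threshold from below, and PCDHB11, at 0.79 ± 0.38, was with PCDHB1 the beta gene whose adjusted p did not pass (0.112).

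PCDHB2 and PCDHB16 took the most beta counts (not divided by length), and neither was called with quisinostat. Counts of PCDHB2 were 515 and 809 in control, 812 and 702 under romidepsin, 1164 and 1355 under quisinostat and 367 and 412 under mivebresib. Both quisinostat libraries exceeded every other library, and both mivebresib libraries lay below every other library. Its log2 FC was 0.74 ± 0.20 (SE, adjusted p = 0.0129) with quisinostat and -0.76 ± 0.21 (SE, adjusted p = 0.0168) with mivebresib, neither beyond 1.5. PCDHB1, the first beta gene, had counts of 8 and 3 in control, 5 and 4 under romidepsin, 11 and 4 under quisinostat and 5 and 16 under mivebresib, its groups overlapped, and its log2 FC with quisinostat was 0.26 ± 0.78 (SE, adjusted p = 0.796), with a 95% interval of -1.52 to 2.05. Of the 14 beta promoters searched, that of PCDHB1 lacked the shared run. With so few counts of PCDHB1, the interval holds both 0 and the beta median of 1.21.

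Mivebresib gave the opposite picture in the beta cluster. It called 5 of the 46 tested members lower, against 4.36% of all tested genes, and all 5 were beta genes: PCDHB5, PCDHB6, PCDHB7, PCDHB8 and PCDHB16. It called 2 members higher, against 3.96%, and these were PCDHAC1 and PCDHAC2. At the adjusted p alone, 16 members were lower (10 beta and 6 gamma) beside 24.1% of all genes, and 2 higher beside 22.2%. The median log2 FC was -1.25 over the beta genes, -0.59 over the gamma genes and 0.18 over the alpha genes, against 0.0067 over all tested genes. DESeq2 called 6 beta genes lower and limma-voom 5. Without control replicate 2, 2 beta genes were called lower, and without control replicate 1, 9 beta, 2 alpha and 1 gamma genes.

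PCDHB6 and PCDHB7 had the largest falls. Counts of PCDHB7 were 180 and 313 in control, 360 and 311 under romidepsin, 669 and 749 under quisinostat and 42 and 51 under mivebresib. Every mivebresib library lay far below every other library, and every quisinostat library above. With mivebresib PCDHB7 was 5.26-fold lower than control, a log2 FC of -2.40 ± 0.29 (SE, adjusted p = 0.000274), and with quisinostat its log2 FC was 1.34 ± 0.23 (SE, adjusted p = 0.00132). Counts of PCDHB6 were 37 and 56 in control, 95 and 55 under romidepsin, 220 and 208 under quisinostat and 6 and 11 under mivebresib. PCDHB6 was called in both directions, higher with quisinostat at 2.02 ± 0.29 (SE, adjusted p = 0.000547) and lower with mivebresib at -2.43 ± 0.45 (SE, adjusted p = 0.00259). Leaving out each library in turn kept both genes past the thresholds with mivebresib.

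PCDHB16 had counts of 411 and 534 in control, 606 and 619 under romidepsin, 860 and 1038 under quisinostat and 163 and 150 under mivebresib. All mivebresib libraries lay below all others, and its log2 FC was -1.58 ± 0.17 (SE, adjusted p = 0.000122). PCDHB8 had counts of 111 and 179 in control, 228 and 179 under romidepsin, 390 and 455 under quisinostat and 46 and 50 under mivebresib and a log2 FC of -1.58 ± 0.27 (SE, adjusted p = 0.00178), and PCDHB5 had counts of 113 and 161 in control, 135 and 129 under romidepsin, 318 and 329 under quisinostat and 38 and 55 under mivebresib and a log2 FC of -1.55 ± 0.23 (SE, adjusted p = 0.000873). These 3 genes sat just past the fold threshold: without control replicate 2 the log2 FC was -1.36 for PCDHB16, -1.18 for PCDHB8 and -1.25 for PCDHB5, and without mivebresib replicate 1 it was -1.32 for PCDHB5. PCDHB13 at -1.497 and PCDHB14 at -1.42 lay just short of it, with adjusted p of 0.00272 and 0.000845.

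The 5 beta genes called lower were neighbours. In genomic order PCDHB5, PCDHB6, PCDHB7, PCDHB8 and PCDHB16 hold positions 5 to 9 of the 16 beta genes. The pseudogene PCDHB17P lies between PCDHB6 and PCDHB7, at 141155996 to 141159061, and was called lower as well, with counts of 5 and 10 in control, 18 and 17 under romidepsin, 33 and 30 under quisinostat and 1 and 2 under mivebresib and an adjusted p of 0.0262. Its call was lost without control replicate 2 or either mivebresib library, with adjusted p of 0.165, 0.125 and 0.0676. Outside this stretch, between PCDHB14 and PCDHB15, the pseudogene PCDHB18P was called lower too, with counts of 4 and 3 in control, 8 and 10 under romidepsin, 13 and 23 under quisinostat and 0 and 0 under mivebresib and an adjusted p of 0.02995, which was 0.0778, 0.0901 and 0.0963 without control replicate 1 and without either mivebresib library. Other beta genes outside the stretch were lower at the adjusted p alone. PCDHB9, the next gene, had -1.22 ± 0.27 (SE, adjusted p = 0.00621), and PCDHB13, PCDHB14 and PCDHB15 at the end of the cluster had log2 FC of -1.497, -1.42 and -1.03, with adjusted p of 0.00272, 0.000845 and 0.0111. PCDHB3, PCDHB4 and PCDHB10 had -0.02, -0.50 and -0.26, with adjusted p of 0.973, 0.266 and 0.4604. That the calls are contiguous was seen in the data and not tested. Over all 16 beta genes, Spearman's rho between genomic order and log2 FC was -0.238 with mivebresib and 0.024 with quisinostat, across genes of the same libraries. Several beta genes overlap antisense or same-strand transcripts, among them PCDHB6, PCDHB7, PCDHB8 and PCDHB16, and whether the counting used strand is not given in the sources used here.

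**Figure D3:**
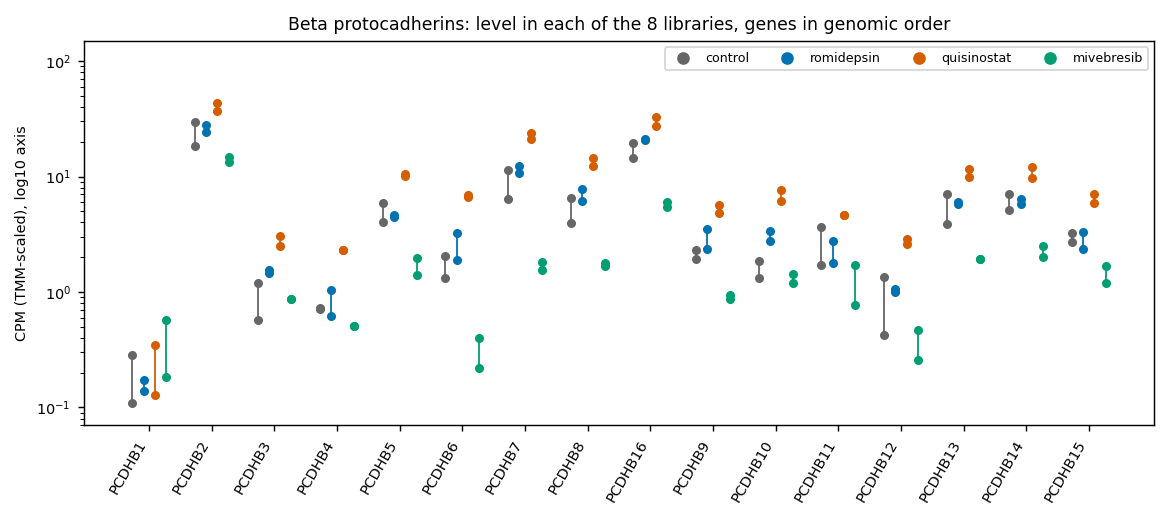
CPM (TMM-scaled, log10 axis) of the 16 beta genes in each library, genes in genomic order, colours by group, with the 2 libraries of a group joined by a line. Except for PCDHB1, the quisinostat points stand highest for every gene, and the mivebresib points of PCDHB6 (0.219 and 0.396 CPM) and PCDHB7 (1.54 and 1.83 CPM) stand well below the other groups.

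In the gamma cluster, quisinostat called PCDHGA3, PCDHGB1, PCDHGA5, PCDHGB4 and PCDHGB5, all in the first 13 of the 22 positions, and mivebresib called 0 gamma genes lower by edgeR, DESeq2 and limma-voom, with 7 at an unadjusted p below 0.05. Of the later genes, PCDHGA11, PCDHGA12 and PCDHGC4 were not tested. PCDHGA8, at position 12, had the lowest gamma log2 FC with quisinostat, -0.37. The place of the called genes was seen in the data and not tested. Counts of PCDHGB1 were 60 and 64 in control, 89 and 80 under romidepsin, 186 and 212 under quisinostat and 53 and 53 under mivebresib. Quisinostat lay above all other libraries, and the mivebresib libraries lay just below the controls in CPM. Its log2 FC with quisinostat was 1.5003 ± 0.16 (SE, adjusted p = 0.000102), right at the fold threshold, and it was 1.43 without control replicate 1 and 1.39 without quisinostat replicate 2, short of it. Counts of PCDHGB5 were 0 and 5 in control, 14 and 7 under romidepsin, 15 and 38 under quisinostat and 14 and 6 under mivebresib, and of PCDHGA5 9 and 8 in control, 8 and 11 under romidepsin, 37 and 33 under quisinostat and 6 and 11 under mivebresib. PCDHGB5 had the largest gamma value, 3.16 ± 0.92 (SE, adjusted p = 0.0188), but lost its call without control replicate 1 or quisinostat replicate 2, with adjusted p of 0.0539 and 0.135, while PCDHGA5 had 1.85 ± 0.37 (SE, adjusted p = 0.00306). PCDHGA3, with counts of 5 and 3 in control, 11 and 7 under romidepsin, 17 and 17 under quisinostat and 3 and 2 under mivebresib, had 1.88 ± 0.47 (SE, adjusted p = 0.00966) and was not called by DESeq2 (adjusted p = 0.0868), and its edgeR call was lost without control replicate 2, quisinostat replicate 1 or quisinostat replicate 2, with adjusted p of 0.0647, 0.0515 and 0.0545.

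PCDHGB4 had counts of 24 and 71 in control, 86 and 63 under romidepsin, 134 and 175 under quisinostat and 28 and 51 under mivebresib, and its log2 FC with quisinostat of 1.51 ± 0.43 (SE, adjusted p = 0.0169) rested on control libraries that differed by more than their smaller count. It was 0.92 without control replicate 1, below the fold threshold, and without quisinostat replicate 2 the adjusted p was 0.0976. PCDHGA6 and PCDHGA1 had an adjusted p below 0.05 in both directions without passing the fold threshold. Counts of PCDHGA6 were 63 and 76 in control, 157 and 115 under romidepsin, 210 and 226 under quisinostat and 38 and 44 under mivebresib. Its 4 groups did not overlap, with quisinostat highest, then romidepsin, control and mivebresib, and its log2 FC was 1.47 ± 0.19 (SE, adjusted p = 0.000339) with quisinostat and -0.75 ± 0.23 (SE, adjusted p = 0.0275) with mivebresib. PCDHGA1 had counts of 69 and 118 in control, 121 and 92 under romidepsin, 185 and 190 under quisinostat and 43 and 55 under mivebresib, with 0.82 ± 0.25 (SE, adjusted p = 0.0245) and -0.92 ± 0.29 (SE, adjusted p = 0.0304) for the same drugs. The other gamma genes lower with mivebresib at the adjusted p alone were PCDHGA9 at -1.11 ± 0.29, PCDHGB2 at -0.93 ± 0.23, PCDHGA10 at -0.65 ± 0.20 and PCDHGC3.

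The tested genes towards the end of the gamma cluster were not called with quisinostat. Nor were several in the first 13 positions, such as PCDHGA2, PCDHGB2 and PCDHGB3, with log2 FC of 0.42, 0.29 and 0.48. Counts of PCDHGA10 were 1403 and 2180 in control, 1759 and 1773 under romidepsin, 1481 and 1895 under quisinostat and 1103 and 1168 under mivebresib, and those of PCDHGB6 were 106 and 164 in control, 226 and 157 under romidepsin, 126 and 148 under quisinostat and 96 and 69 under mivebresib. In both, quisinostat lay within or beside the control range. PCDHGA10 had a log2 FC of -0.27 ± 0.20 and PCDHGB6 of -0.16 ± 0.27 with quisinostat, with adjusted p of 0.283 and 0.643, and both signs turned when control replicate 2 was left out. Spearman's rho between genomic order and log2 FC with quisinostat was -0.482 over 19 gamma genes and -0.473 over the 17 that are not C-type, all measured in the same libraries.

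Of the C-type gamma genes, PCDHGC3 had counts of 7422 and 10034 in control, 9209 and 8347 under romidepsin, 8158 and 8774 under quisinostat and 5846 and 5687 under mivebresib. The mivebresib libraries were the lowest, and the romidepsin and quisinostat ranges overlapped that of the control. Its log2 FC was -0.06 ± 0.15 (SE, adjusted p = 0.7796) with romidepsin, -0.23 ± 0.15 (SE, adjusted p = 0.218) with quisinostat and -0.59 ± 0.15 (SE, adjusted p = 0.0106) with mivebresib. The 95% interval with quisinostat, -0.56 to 0.11, held no rise of the size seen in PCDHAC1 or PCDHAC2. PCDHGC5 had counts of 7 and 8 in control, 19 and 10 under romidepsin, 17 and 9 under quisinostat and 6 and 5 under mivebresib and log2 FC of 0.88, 0.60 and -0.43 with adjusted p of 0.219, 0.3501 and 0.592. PCDHGC4 was not tested and had counts of 9 and 3 in control, 0 and 1 under romidepsin, 9 and 5 under quisinostat and 1 and 0 under mivebresib. The C-type genes of the alpha and gamma clusters had different values with the same drug, and that difference was not tested.

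**Figure D4:**
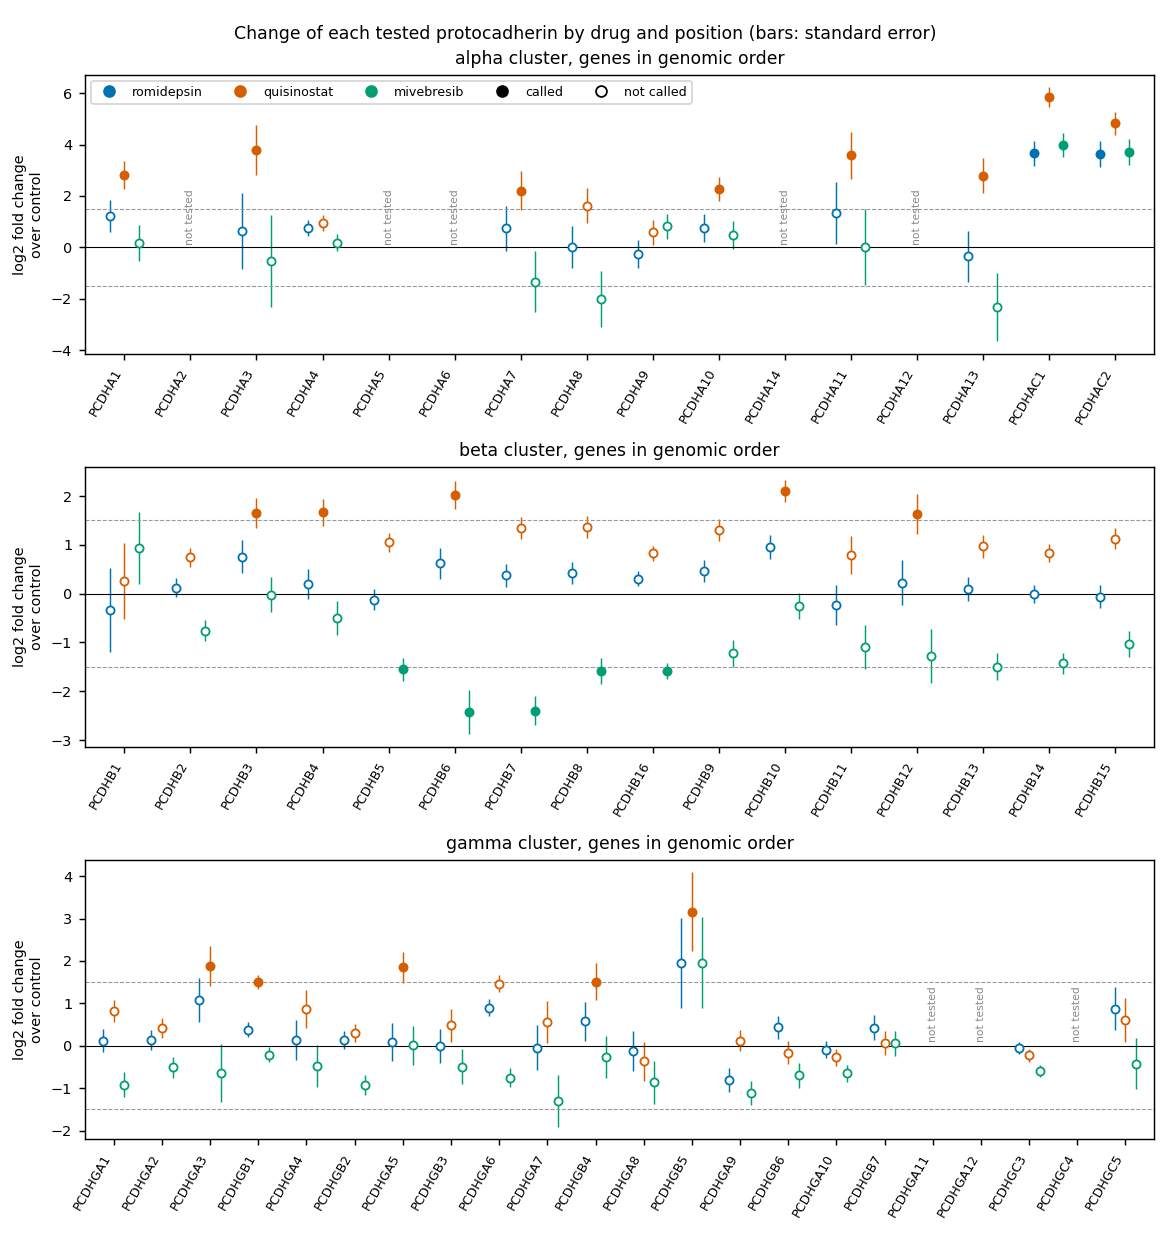
Log2 fold change over control (vertical axis) of each tested member in genomic order along the alpha, beta and gamma clusters, for romidepsin, quisinostat and mivebresib; bars are 1 standard error, filled points were called, dashed lines mark the fold threshold of 1.5. The alpha panel shows PCDHAC1 and PCDHAC2 filled for all 3 drugs, and the beta panel shows the adjacent filled mivebresib points from PCDHB5 to PCDHB16.

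With romidepsin the share of members called was near that of all genes. It called 2 of the 46 higher, against 3.77% of all tested genes, and 0 lower, against 0.312%, and the 2 were PCDHAC1 and PCDHAC2. At the adjusted p alone 4 were higher, beside 15.2% of all genes, and 0 lower, beside 15.8%, the others being PCDHB10 at 0.96 ± 0.24 and PCDHGA6 at 0.90 ± 0.20. DESeq2 and limma-voom called the same number in each direction, and 1 member was lower at an unadjusted p below 0.05 in edgeR. The median log2 FC was 0.75 over the alpha genes, 0.21 over the beta genes and 0.13 over the gamma genes, against -0.012 over all tested genes. Without control replicate 2, 4 members were called.

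Because romidepsin and quisinostat were given at the same dose for the same time, they were compared directly over the 46 tested members. Members were higher with quisinostat: 7 were called, against 5.41% of all tested genes, and 0 were called the other way, against 0.179%. DESeq2 called 4 higher and limma-voom 8, each with 0 lower, and 0 were lower at an unadjusted p below 0.05. The 7 were PCDHA1, PCDHA3, PCDHA10, PCDHA11, PCDHA13, PCDHAC1 and PCDHGA5. Of these, PCDHA3, PCDHA11 and PCDHA13 had passed the filter on low counts only with their quisinostat libraries. PCDHAC1 was 4.52-fold higher with quisinostat than with romidepsin, a log2 difference of 2.18 ± 0.25 (SE, adjusted p = 0.000444), and PCDHA13 had a log2 difference of 3.14 ± 0.71 (SE, adjusted p = 0.00969) and PCDHA3 of 3.14 ± 0.88 (SE, adjusted p = 0.0242). The call of PCDHAC1 held in each of the 4 fits that left out a library of these groups, and the other 6 were each lost in at least 2 of them. PCDHA1 was lost in all 4, with adjusted p from 0.0774 to 0.168. PCDHA3 had adjusted p of 0.122, 0.07599 and 0.12999 without romidepsin replicate 2, quisinostat replicate 1 and quisinostat replicate 2, and PCDHA10 had 0.131, 0.0958 and 0.115 in that order. PCDHA11 had 0.124, 0.157 and 0.169 without romidepsin replicate 1 and without either quisinostat library. PCDHA13 had 0.0792 without romidepsin replicate 2 and 0.0665 without quisinostat replicate 2, and PCDHGA5 had 0.0612 without romidepsin replicate 1 and 0.0579 without quisinostat replicate 1. DESeq2 did not call PCDHA3 (adjusted p = 0.0648) or PCDHA11 (adjusted p = 0.132), and without the filter on low counts PCDHA11 had an edgeR adjusted p of 0.0690. Without quisinostat replicate 1, 2 members were called, and without romidepsin replicate 2 or quisinostat replicate 2, 3.

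In the beta cluster all 16 log2 differences between the HDAC inhibitors were positive, from 0.52 to 1.48 with a median of 0.95, and 14 had an adjusted p below 0.05, beside 21% of all genes higher at that threshold and 14.6% lower. None went past 1.5 in edgeR or DESeq2, and limma-voom called 1. PCDHB4 had the largest at 1.48 ± 0.27 (SE, adjusted p = 0.00379) and PCDHB16 the smallest at 0.52 ± 0.15 (SE, adjusted p = 0.0248). For PCDHGC3 the log2 difference was -0.17 ± 0.15 (95% interval -0.50 to 0.17), for PCDHA4 0.19 ± 0.29 (-0.47 to 0.86) and for PCDHGA10 -0.18 ± 0.20 (-0.64 to 0.28). These intervals include 0 and bound any difference at less than 1 log2 unit in size. With 1 dose each, the values compare these doses and not the compounds at equal effect.

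**Figure D5:**
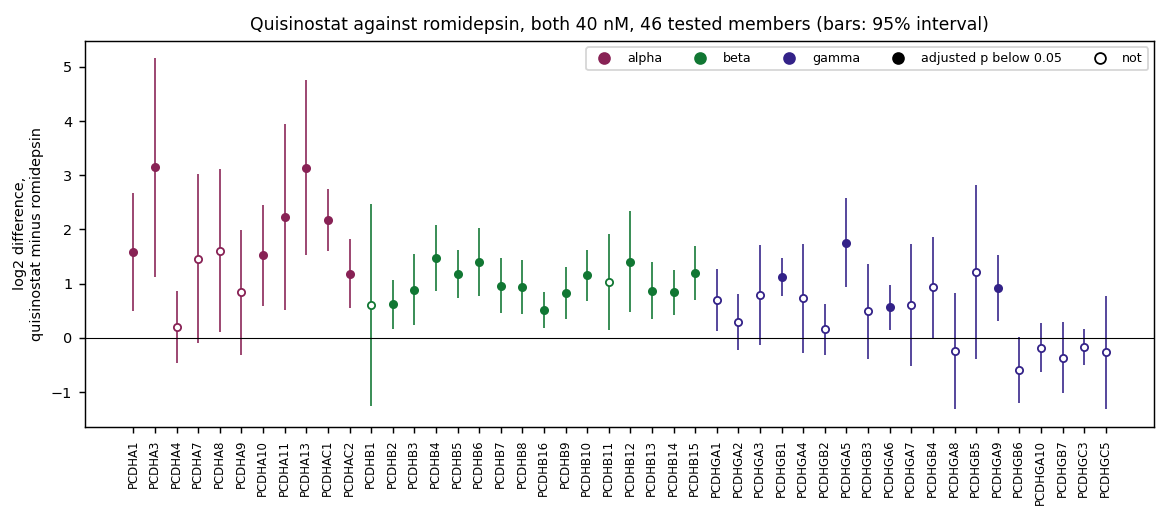
Log2 difference between quisinostat and romidepsin (vertical axis), both at 40 nM for 24 h, for the 46 tested members ordered by cluster and genomic position; bars are 95% intervals and filled points have an adjusted p below 0.05. All 16 beta values lie between 0.52 and 1.48, and the intervals of PCDHGA10 and PCDHGC3 include 0.

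Mivebresib and quisinostat were further apart. Of the 46 members, 30 were called lower with mivebresib than with quisinostat (8 alpha, 15 beta and 7 gamma; 20 of them in each fit that left out 1 library), against 12.6% of all tested genes, and 0 higher, against 1.73%, with 0 higher in DESeq2 and limma-voom or at an unadjusted p below 0.05. The largest log2 difference was that of PCDHA13, -5.11 ± 0.93 (SE, adjusted p = 0.00167), and PCDHA3 had -4.30 ± 1.05 (SE, adjusted p = 0.00771). Both had 0 and 2 counts under mivebresib, and PCDHA3 was not among the 20. Of the beta genes, PCDHB6 was 21.8-fold lower, a log2 difference of -4.44 ± 0.38 (SE, adjusted p = 2.73e-05). PCDHB7 was 13.3-fold lower, a log2 difference of -3.74 ± 0.28 (SE, adjusted p = 1.29e-05). By the adjusted p alone the contrast held 35 members lower, beside 31.5% of all genes, and 0 higher, beside 26.2%. PCDHB1 was the beta gene not called. Against romidepsin, mivebresib called 8 members lower, against 6.7% of all tested genes, 6 of them beta genes, and 0 higher, against 2.52%. PCDHB6 and PCDHB7 had the largest log2 differences, -3.05 ± 0.42 and -2.77 ± 0.29. Without romidepsin replicate 1 the log2 difference was -1.39 for PCDHB9, -1.41 for PCDHGA6 and -1.37 for PCDHGA3, short of the fold threshold. PCDHGA3 lost its call in each fit that left out a library of these groups, with log2 differences from -2.04 to -1.37. PCDHGA3 was also not called by DESeq2 (adjusted p = 0.160) or by edgeR without the filter on low counts (adjusted p = 0.0674). Without the fold threshold 20 were lower, beside 25.2% of all genes, and 0 higher, beside 23.7%. In that contrast too, DESeq2, limma-voom and an unadjusted p below 0.05 gave 0 members higher. Mivebresib was given at 1200 nM and the HDAC inhibitors at 40 nM, so the doses were not matched.

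The surroundings of the clusters were measured in the same libraries. Of 15 tested genes beside or between the clusters, 3 were called higher with quisinostat (RELL2 at 2.08 ± 0.12, PCDH1 at 1.69 ± 0.14 and ARAP3 at 1.55 ± 0.16), against 11.2% of all tested genes. At the adjusted p alone, 4 of the 15 were higher with romidepsin, 4 with quisinostat and 7 with mivebresib, beside 15.2%, 28% and 22.2% of all genes. TAF7, which encodes a general transcription factor subunit and lies between the beta and gamma clusters, had counts of 3170 and 3136 in control, 3165 and 3345 under romidepsin, 4157 and 4047 under quisinostat and 4723 and 4659 under mivebresib and a log2 FC of 0.59 ± 0.07 (SE, adjusted p = 0.000345) with mivebresib, where the beta genes were lower. Of the tested pseudogenes within the locus, PCDHB17P and PCDHB18P, both were called higher with quisinostat, at 1.87 ± 0.39 and 2.15 ± 0.55. PCDHB18P reached the filter on low counts only with its quisinostat libraries, so its call with quisinostat rests in part on that selection. Without control replicate 1 the log2 FC of PCDHB17P was 1.44, below the fold threshold, and PCDHB18P had adjusted p of 0.0515 and 0.103 without control replicate 2 and without quisinostat replicate 2. Among 9 tested protocadherins outside the clusters, romidepsin called 4 higher, quisinostat 7 and mivebresib 5, against 3.77%, 11.2% and 3.96% of all tested genes. PCDH10 was among them with every drug, with counts of 101 and 159 in control, 658 and 634 under romidepsin, 1825 and 1937 under quisinostat and 418 and 481 under mivebresib and log2 FC of 2.24, 3.67 and 1.80, and PCDH19 had 2.75, 4.81 and 4.54.

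Markers of other cell types were measured too, since clustered protocadherins are best known from neurons. Of 7 neuronal markers, romidepsin called 4 higher, quisinostat 6 and mivebresib 3, against 3.77%, 11.2% and 3.96% of all tested genes, and none was at 0 in all libraries. STMN2, with 37 and 17 counts under quisinostat and 9 or fewer elsewhere, reached the filter on low counts only with its quisinostat libraries. Its call with quisinostat, 1 of the 6, rests in part on that selection. Their summed CPM was 78.9 to 82.5 in control, 54.0 to 55.4 with romidepsin, 115 to 127 with quisinostat and 355 to 394 with mivebresib, the last led by TUBB3, a tubulin, at 10550 and 9665 counts. SYN1, a synaptic vesicle gene, had counts of 7 and 5 in control, 54 and 54 under romidepsin, 172 and 196 under quisinostat and 62 and 56 under mivebresib. Without TUBB3 the sum over the other 6 markers was 2.09 to 2.59 CPM in control, 7.78 to 8.11 with romidepsin, 29.6 to 30.3 with quisinostat and 7.44 to 8.01 with mivebresib. These 6 together were highest with quisinostat, as the alpha and beta sums were; the part of these markers in the protocadherin values was not tested. The melanocytic sum, mostly TYRP1, was 4193 to 5452 CPM in control, 4738 to 5027 with romidepsin, 3563 to 4108 with quisinostat and 3698 to 3776 with mivebresib, and the sum over the other 6 markers was 1209 to 1336, 1198 to 1215, 814 to 879 and 613 to 624 CPM in that order. SOX10, a transcription factor of the melanocyte lineage, was the melanocytic marker called lower, with counts of 6109 and 5527 in control, 4347 and 4913 under romidepsin, 3366 and 3575 under quisinostat and 1564 and 1468 under mivebresib and a log2 FC of -1.93 ± 0.10 (SE, adjusted p = 3.80e-06) with mivebresib. MITF, the other such factor, had a log2 FC of -1.39 ± 0.08 (SE, adjusted p = 4.19e-06) with quisinostat and -1.47 ± 0.08 (SE, adjusted p = 4.67e-06) with mivebresib, short of the fold threshold. The part of these markers in the protocadherin values was not tested either. Of the immune, endothelial and epithelial markers, 1 of 3, 1 of 2 and 2 of 3 passed the filter. CD3E (T cells) and CDH5 (endothelium) had 0 counts in every library, and the endothelial sum was at most 0.541 CPM. The immune sum was nearly all CD68, which had 1699 to 2307 counts per library. That sum was 65.96 to 83.1 CPM in control and 65.98 to 67.97 with quisinostat. Epithelial markers summed to 2.41 to 3.76 CPM in control, 6.496 to 8.104 with quisinostat and 5.85 to 6.04 with mivebresib. Of 5 fibroblast markers only COL1A1 passed the filter, and the summed CPM was 1.63 to 1.83 in control and 8.28 to 10.6 with quisinostat. That sum was nearly all COL1A1, with counts of 40 and 45 in control, 143 and 110 under romidepsin, 327 and 251 under quisinostat and 28 and 48 under mivebresib. COL1A1 was called higher with both HDAC inhibitors. COL1A2, COL3A1, DCN and LUM had at most 5 counts in a library.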

How the data were processed

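Strand-specific mRNA libraries of MP38 cells were sequenced by the submitters as paired-end reads, and the authors deposited raw counts per gene symbol. Their processing notes name the genome build hg38; the aligner, the counting tool, the annotation and the use of strand are not given in the sources used here. Deposited log CPM and quantile-normalized tables were not used. Counts of all 8 libraries entered 1 quasi-likelihood model of edgeR 4.0.16 (R 4.3.3). Libraries were scaled with TMM factors, low genes were removed with filterByExpr, and p-values were adjusted by Benjamini-Hochberg over 15085 genes, with a biological coefficient of variation of 0.0938. Calls used the study's thresholds. The study itself analysed the libraries with limma through BioJupies. Replicate numbers came from the sample labels. P-values measure the spread between wells, estimated for each gene over all groups together, and counting intervals cover counting error only. As the control libraries stood further apart than those of any drug group, p-values and SE against control can understate the control spread.

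Alternatives were DESeq2 1.42.0, limma-voom (limma 3.58.1), other scalings and filters, other sets of libraries, the adjusted p alone, a replicate block and leaving out each library; the edgeR, DESeq2 and limma-voom steps were tested on simulated data. A library left alone in its group was assumed to vary like the other groups. Genes were named by a rule: in each cluster the 3 members with most counts, every C-type member, and per comparison the 3 largest changes in each direction among those called; of the other lists, called genes. The members, lists and rule were chosen with earlier results of these data known, and genes named outside the rule were picked after their values were seen. Gene positions and shared exons came from GENCODE 29, shared words were 31 bases long, promoters came from RefSeq (GRCh38.p14), and Python 3.11.15, pandas 2.3.3 and matplotlib 3.10.9 were used.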

Additional observations from a re-analysis of the deposited data

How the results depend on the processing

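With 2 libraries per group, 1 library carries weight. At the adjusted p alone the members called were 4 for romidepsin, 30 for quisinostat, 18 for mivebresib, 25 for quisinostat against romidepsin and 20 for mivebresib against romidepsin. A mean CPM of at least 1, which tests fewer members, gave 11 for quisinostat and 3 for quisinostat against romidepsin, and DESeq2 gave 4 for the latter; the cause of the DESeq2 value was not tested. Leaving out each library in turn gave 2 to 4 members for romidepsin, 10 to 24 for quisinostat, 5 to 14 for mivebresib, 2 to 7 for quisinostat against romidepsin, 22 to 30 for mivebresib against quisinostat and 6 to 10 for mivebresib against romidepsin. Scaling by library size alone moved the median of all genes with quisinostat to 0.20 (upper-quartile factors, 0.13).

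Among 760 values of named members under the alternatives, 702 kept their direction and their side of the thresholds, 37 fell short of them, 9 passed them and 12 changed sign. The 12 were members that were not called. Over the fits that each left out 1 library, the log2 FC of PCDHA1 with mivebresib ran from -1.94 to 0.99, that of PCDHB2 with romidepsin from -0.16 to 0.51, that of PCDHGC3 from -0.26 to 0.20 with romidepsin and from -0.45 to 0.025 with quisinostat, that of PCDHGA10 from -0.37 to 0.29 with romidepsin and from -0.57 to 0.10 with quisinostat, and that of PCDHGB6 with quisinostat from -0.46 to 0.20. PCDHA1 with mivebresib was -0.41 under limma-voom, PCDHGC3 with romidepsin was 0.015 with library size alone and 0.026 with upper-quartile factors, and PCDHGB6 with quisinostat was 0.041 with library size alone.

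Correlations of same-numbered libraries' deviations ran from -0.162 to 0.158. They were positive among control, quisinostat and mivebresib and negative between romidepsin and each of these. Values this small cannot settle whether the sample numbers of the labels pair the libraries. With a replicate block the members called were 2 for romidepsin, 17 for quisinostat, 7 for mivebresib, 7 for quisinostat against romidepsin, 29 for mivebresib against quisinostat and 9 for mivebresib against romidepsin.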

Other observations

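Genes of proteins known to organise or silence the protocadherin locus, and of proteins that bind, cut or signal from protocadherins, were read from the same fit. Of 27 genes for chromatin architecture, silencing and DNA methylation, 1 was called lower with each HDAC inhibitor, against 0.312% of all tested genes for romidepsin and 1.03% for quisinostat. It was UHRF1, which guides maintenance of DNA methylation, with counts of 887 and 975 in control, 355 and 281 under romidepsin, 224 and 193 under quisinostat and 463 and 466 under mivebresib and log2 FC of -1.62 ± 0.13 (SE, adjusted p = 0.000124) with romidepsin and -2.34 ± 0.14 (SE, adjusted p = 4.86e-06) with quisinostat. Both HDAC inhibitor groups lay below control and mivebresib with no overlap. At the adjusted p alone, 10, 18 and 10 of the 27 were lower with romidepsin, quisinostat and mivebresib, beside 15.8%, 25.1% and 24.1% of all tested genes. CTCF, singled out because it binds these promoters, had counts of 1107 and 1049 in control, 739 and 768 under romidepsin, 854 and 832 under quisinostat and 974 and 1002 under mivebresib and log2 FC of -0.58 ± 0.07 (SE, adjusted p = 0.000888), -0.53 ± 0.07 (SE, adjusted p = 0.000449) and -0.11 ± 0.07 (SE, adjusted p = 0.241) in that order.

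Of 15 partner genes, romidepsin called 1 higher, quisinostat 2 and mivebresib 1, against 3.77%, 11.2% and 3.96% of all tested genes. CYFIP2, a subunit of the WAVE complex that regulates actin, had counts of 760 and 695 in control, 2176 and 2273 under romidepsin, 4787 and 4735 under quisinostat and 1109 and 1057 under mivebresib and log2 FC of 1.55 with romidepsin and 2.53 with quisinostat. RET, a receptor tyrosine kinase, had counts of 43 and 76 in control, 97 and 69 under romidepsin, 368 and 395 under quisinostat and 173 and 212 under mivebresib and log2 FC of 2.50 with quisinostat and 1.70 with mivebresib. Their relation to the protocadherin values was not tested.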
